A study of Homo sapiens with 6 samples.

Results

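miR-221 is a microRNA (miRNA) whose hairpin precursor yields 2 mature strands, hsa-miR-221-3p from the 3′ arm and hsa-miR-221-5p from the 5′ arm (miR-221-3p and miR-221-5p hereafter). Both strands were taken by name from the known-miRNA tables, where they are 2 of 161 known rows, beside 115 rows of miRNAs predicted by the authors. The RNA came from exosomes, small vesicles that cells release, spun by ultracentrifugation from the medium of HaCaT, an established human keratinocyte line. The control group was 3 libraries of exosomes from untreated cells, and the other group was 3 libraries from cells given 0.4 mM hydrogen peroxide (H2O2), an oxidant. The treatment labels give 24, 25 and 26 h for H2O2 replicates 1, 2 and 3, the series text gives 24 h for all, and time cannot be told apart from replicate number. All 6 libraries come from this single cell line, the replicates are labelled biological, and no cellular RNA of the same cultures was analysed here.

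A miRNA hairpin is cut by Drosha and Dicer into a short duplex, and an Argonaute protein keeps mainly the guide strand, while the passenger strand is mostly lost. The guide finds its target mRNAs largely through the seed, the bases near its 5′ end. miR-221-3p is the usual guide of this hairpin, and with its neighbour miR-222-3p it is known for repressing the cell cycle inhibitor CDKN1B (p27) and the receptor KIT, and for a role in melanoma.

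The hairpin gene MIR221 lies on the minus strand of chromosome X at chrX:45746157-45746266 in GRCh38.p14 (RefSeq), and miR-221-3p occupies bases 45746180 to 45746202 of it. In GENCODE release 29, on GRCh38, the hairpin lies inside the long non-coding RNA gene MIR222HG (chromosome X, 45745211 to 45770274, same strand), outside its 4 annotated exons, so it is intronic there. The MIR222 hairpin lies 748 bases from that of MIR221. No source used here gives the build behind the authors' counts, so the position rests on the miRNA's name. The RefSeq hairpins of both neighbours are printed to place the strand within its precursor, with the 3p strand in capitals and written 5′ to 3′:
MIR221 hairpin: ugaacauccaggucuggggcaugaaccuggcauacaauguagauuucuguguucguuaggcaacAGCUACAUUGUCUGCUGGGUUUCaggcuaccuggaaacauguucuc
MIR222 hairpin: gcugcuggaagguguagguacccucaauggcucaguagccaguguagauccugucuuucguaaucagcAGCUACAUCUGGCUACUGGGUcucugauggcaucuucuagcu

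miR-221-3p fills bases 65 to 87 of its 110-base hairpin. In the fold of lowest predicted free energy (RNAfold, -46.5 kcal/mol), 21 of its 23 bases are paired, to partners between bases 23 and 48 on the opposite arm, the side from which miR-221-5p comes. The mature strands that follow share their seed or are the abundant miRNAs used for comparison later, and the seed, bases 2 to 8, is in capitals:
miR-221-3p: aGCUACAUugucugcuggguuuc
miR-222-3p: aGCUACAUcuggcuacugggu
miR-148a-3p: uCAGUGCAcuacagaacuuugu
let-7f-5p: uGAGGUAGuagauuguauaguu
miR-183-5p: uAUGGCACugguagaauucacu
miR-30c-5p: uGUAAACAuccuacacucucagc

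miR-221-3p and miR-222-3p are identical over their first 8 bases and at 11 of the 21 positions that both have. Among the 2370 mature names in the RefSeq table, these 2 carry the seed GCUACAU. Of the known rows, 136 of 161 could be matched to a sequence, and 1 of them, miR-221-3p itself, has this seed. Neither strand of miR-222 is among the rows analysed here (0 rows).

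Exosomes of H2O2-treated cells held a smaller share of both miR-221 strands, in every library. miR-221-3p, the guide, fell about 3.19-fold and miR-221-5p, the passenger, about 2.47-fold, and the ratio of the strands did not differ beyond the spread between libraries. Levels are in CPM, the deposited normalized counts, each read count divided by a library total set by the authors and multiplied by a constant, so they are shares of a library. Less of a miRNA in each vesicle and more of other RNA in the library cannot be told apart.

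hsa-miR-221-3p stood at 38018, 44567 and 30836 CPM in untreated replicates 1 to 3. Its H2O2 values were 12368, 15002 and 8149.9 CPM, in the same order. Every H2O2 library lay below every untreated library, and the lowest untreated value was 2.06 times the highest H2O2 value. The reads behind these values were 120273, 117850 and 166685 in the untreated libraries and 38083, 36752 and 33671 in the H2O2 libraries. As a share of its library, miR-221-3p went from 3.08% to 4.46% of reads in untreated exosomes to 0.815% to 1.5% in H2O2 exosomes. Among the listed known miRNAs of a library its rank by level was 2 in all 3 untreated libraries, and 4, 2 and 4 in H2O2 replicates 1, 2 and 3. The group means were 37807 ± 6868 and 11839.9 ± 3456 CPM (SD, n = 3 each), which is -1.67 ± 0.48 (SE) as a log2 fold change. It passed edgeR's quasi-likelihood test at a Benjamini-Hochberg adjusted p of 0.0202.

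hsa-miR-221-5p was far rarer and far steadier. Its level was 942, 916 and 939.6 CPM in untreated replicates 1 to 3, from 2981, 2421 and 5079 reads. In H2O2 replicates 1 to 3 it was 356, 387 and 388 CPM, from 1096, 948 and 1604 reads. The 2 groups were separate here too, with the lowest untreated value 2.36 times the highest H2O2 value. The group means were 932 ± 14.7 and 377 ± 18.3 CPM (SD, n = 3 each), or -1.31 ± 0.33 (SE) as a log2 fold change. The same edgeR test gave a Benjamini-Hochberg adjusted p of 0.0139.

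**Figure D1:**
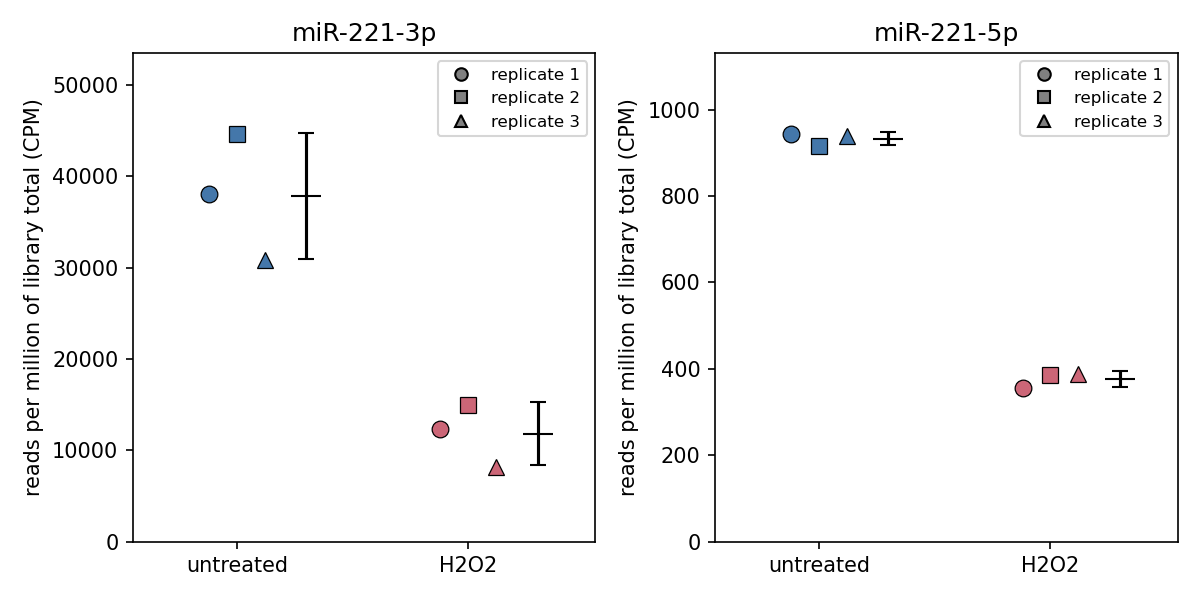
Level of miR-221-3p (left) and miR-221-5p (right) in CPM, with 1 point per library, marker shape for the replicate number, and a bar and whiskers for the group mean ± SD (n = 3). All H2O2 points lie below all untreated points in both panels, and the points of miR-221-5p lie much closer together within each group.

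The spread within a group set the strands apart. The highest untreated value of miR-221-5p was 1.03 times the lowest and the highest H2O2 value 1.09 times the lowest, against 1.45 and 1.84 times for miR-221-3p. On the log2 scale the SD within groups was 0.05 for miR-221-5p, the smallest of the 127 known miRNAs tested, and 0.37 for miR-221-3p, the 27th smallest, with a median of 0.52 over all 127. The exact 95% counting intervals of miR-221-5p overlapped among the untreated libraries (909 to 977, 879 to 953 and 914 to 966 CPM) and among the H2O2 libraries (335 to 378, 363 to 412 and 369 to 408 CPM). Those of miR-221-3p did not overlap between any pair of libraries of a group. Its intervals ran from 30690.5 to 30982 CPM in untreated replicate 3 and from 44318 to 44816 CPM in untreated replicate 2, so the spread of the guide strand was wider than counting error. The SE of the fold change of miR-221-5p is larger than its own spread would give, because the test moderates each row's spread towards that of the other rows.

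The rows in these tables had already been selected by the authors for a difference, which limits what the calls say about miR-221. Of the 127 known rows with enough reads, 78.7% passed the edgeR test in either direction, 61 of them, or 48.0% of the 127, as falls, and in 62, or 48.8%, every H2O2 library lay below every untreated library. The balance of 39 rises and 61 falls became 24 and 66 with median-of-ratios scaling, 46 and 31 with totals without miR-1246 reads, and 45 and 46 with 1 scaling factor that brings the fold changes to the authors' values, and both strands of miR-221 fell under each. Both strands belong to that large set, and adjusted p-values over selected rows are too small by an unknown amount. The fall of miR-221-3p was the 30th largest and that of miR-221-5p the 56th largest of the 127, where the known rows that fell had a median log2 fold change of -1.64. In the authors' deposited table the log2 fold change was -1.51 with p = 0.000107 for miR-221-3p, and -1.14 with p = 0.0037 for miR-221-5p, both unadjusted.

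**Figure D2:**
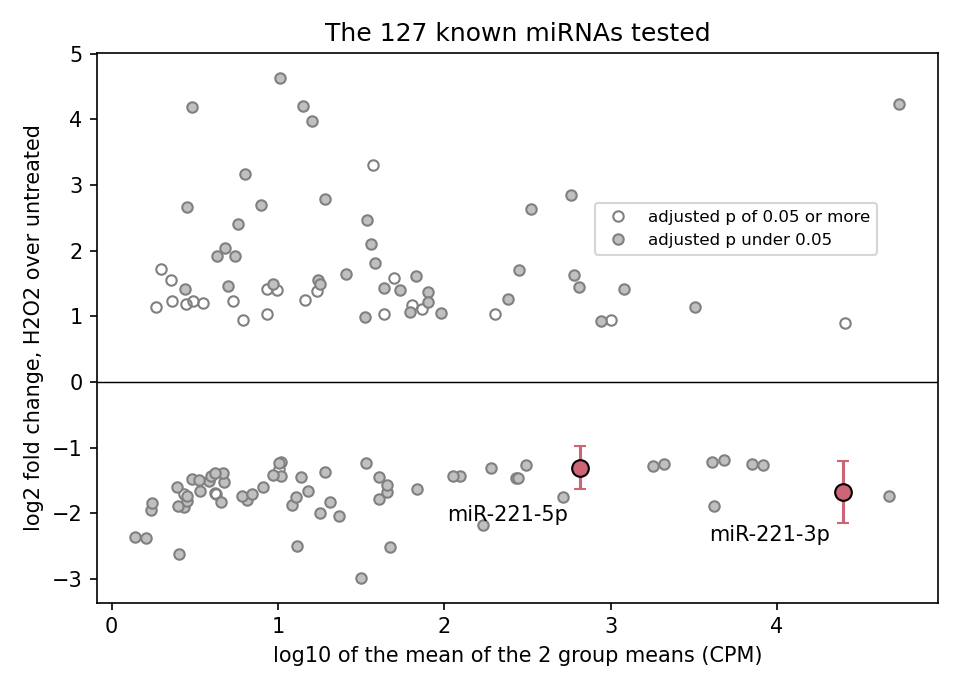
Log2 fold change of H2O2 over untreated exosomes against the log10 of the mean level in CPM for the 127 known miRNAs tested, with filled points past the test and both miR-221 strands in red with their SE. The strands lie within the band of listed falls, at -1.67 and -1.31, and no point lies near 0 in these selected rows.

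The calls depended on single libraries, as did those of the known rows as a whole. Of these, 11 of 126 passed without H2O2 replicate 1 and 43 of 122 without untreated replicate 2, against 100 of 127 with all libraries. Without untreated replicate 2 miR-221-3p was at -1.54 ± 0.55 (edgeR adjusted p = 0.053) and without H2O2 replicate 1 at -1.71 ± 0.64 (edgeR adjusted p = 0.0624). miR-221-5p was at -1.27 ± 0.41 without H2O2 replicate 1 (edgeR adjusted p = 0.0565). Adjusted as if 2000 miRNAs had been tested, neither passed (edgeR adjusted p = 0.217 for miR-221-3p and 0.15 for miR-221-5p).

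**Figure D3:**
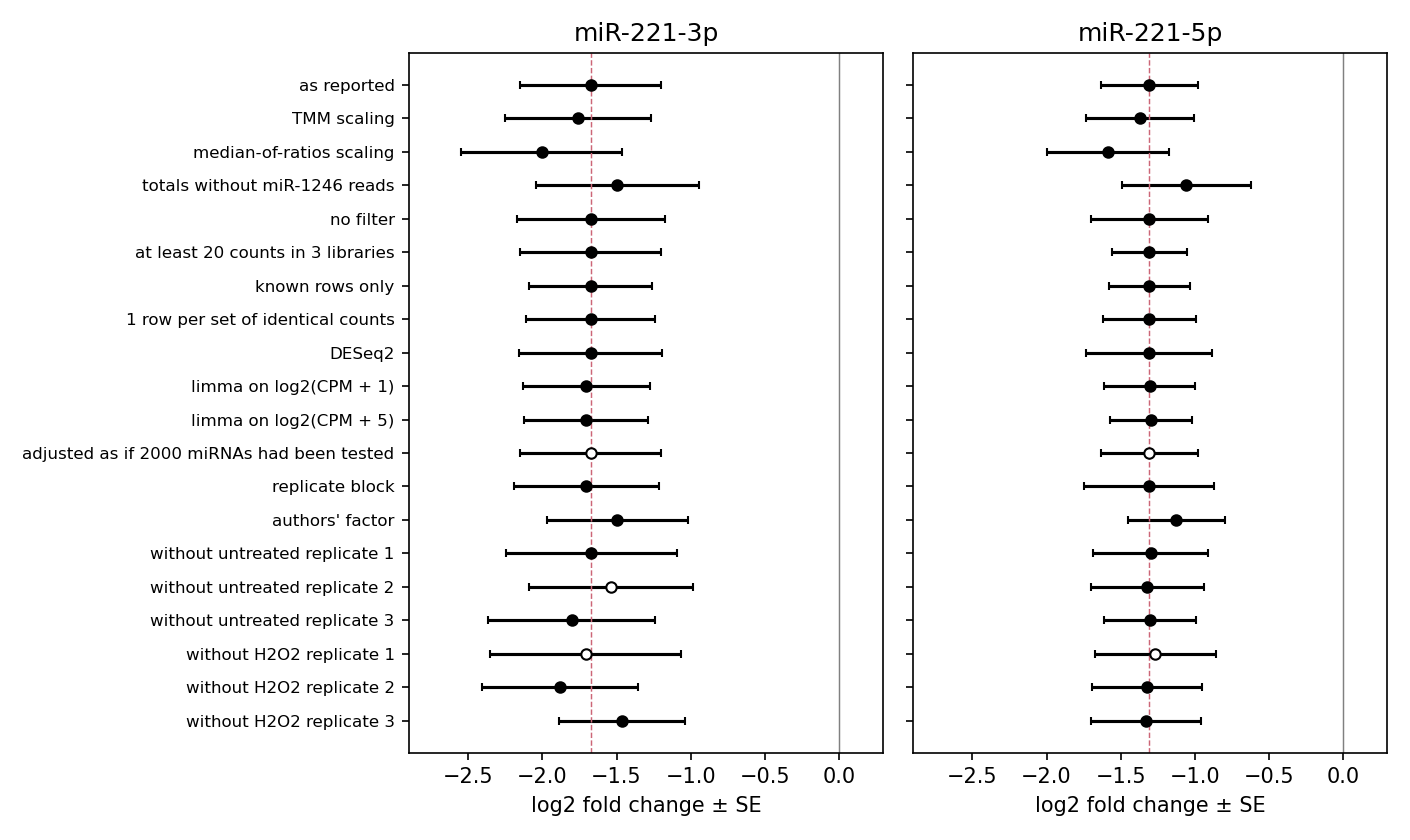
Log2 fold change ± SE of miR-221-3p (left) and miR-221-5p (right) as reported and under each other setting, with filled points for an adjusted p under 0.05 and the reported value as a dashed line. All estimates lie below 0, the values of miR-221-5p lie closer together across the runs without a library, and 3 points on the left and 2 on the right are open.

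Whether both strands fell alike was read from their ratio within each library, which needs no library total. In untreated replicates 1, 2 and 3 there were 40.3, 48.7 and 32.8 reads of miR-221-3p for each read of miR-221-5p. In H2O2 replicates 1, 2 and 3 there were 34.7, 38.8 and 21.0. The guide strand prevailed in all 6 libraries, and the groups overlapped, since H2O2 replicates 1 and 2 lay above untreated replicate 3. As a share of reads of both strands, miR-221-5p made up 2.42%, 2.01% and 2.96% in untreated replicates 1, 2 and 3. In H2O2 replicates 1, 2 and 3 its share was 2.80%, 2.51% and 4.55%. H2O2 replicate 3, with an exact 95% interval from 4.33% to 4.77%, stood above the other 5 libraries.

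The mean ratio was 40.6 ± 7.93 in untreated and 31.5 ± 9.32 in H2O2 exosomes (SD, n = 3 each). On the log2 scale the ratio was lower by 0.40 ± 0.32 (SE) after H2O2 (difference -0.40), with p = 0.4 in a two-sided exact permutation test, where 3 against 3 allows no p below 0.1. A test of the strands within the edgeR fit (diffSpliceDGE) gave a difference of -0.37 for miR-221, with an edgeR adjusted p of 0.273 over the 4 hairpins that had both strands tested. The larger fall of miR-221-3p than of miR-221-5p was therefore not distinguished from replicate spread. H2O2 replicate 3 carried much of the difference, which was -0.13 without it. It was -0.26 without untreated replicate 2.

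Library depth moved with the ratio. The order of the library totals within each group was the reverse of the order of the ratios. The totals of untreated replicates 1 to 3 were 3163552, 2644362 and 5405525 reads. The H2O2 libraries held 3079094, 2449856 and 4131478 reads, in the same order. The level of miR-221-3p followed the same reverse order in both groups, and that of miR-221-5p did not. The replicate order was the same in both groups, so the order of depth cannot be told apart from replicate number. The part of depth in the ratio was not tested.

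**Figure D4:**
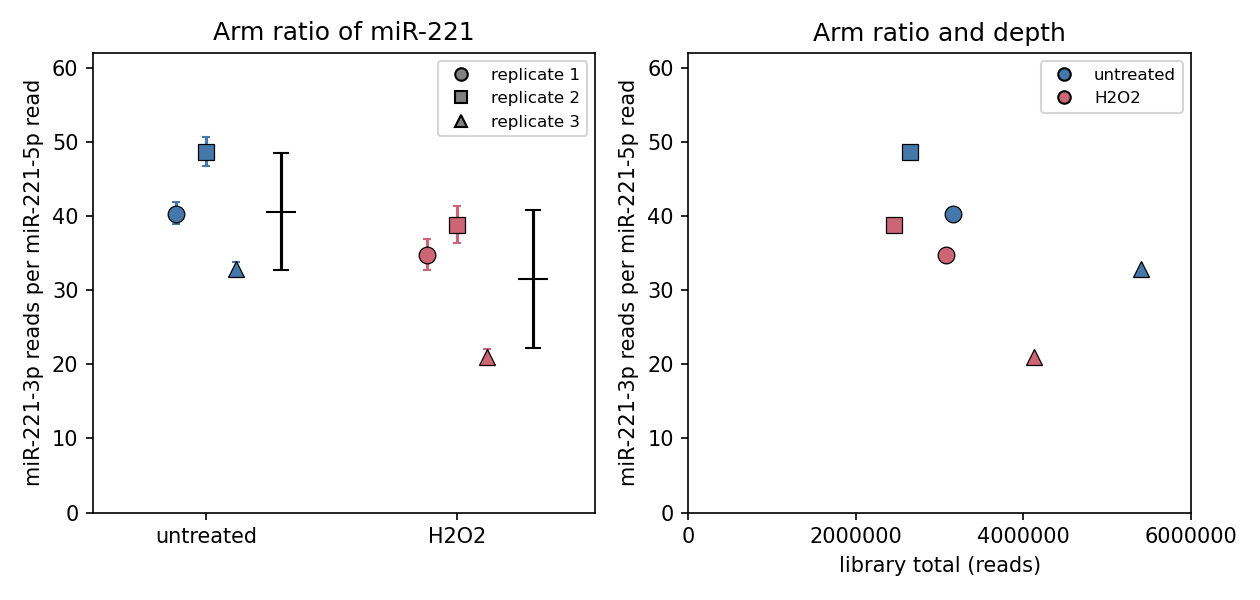
Left, reads of miR-221-3p per read of miR-221-5p in each library with exact 95% counting intervals, and the group mean ± SD (n = 3). Right, the same ratios against the library total in reads. The groups overlap between 32.8 and 38.8, and within each group the deepest library has the lowest ratio, 32.8 in untreated and 21.0 in H2O2 exosomes.

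Both strands of a hairpin were matched by names that differ in the arm alone, which found 5 hairpins in the known tables. Of these, miR-221 and miR-125a had both strands listed as lower. miR-125a is a hairpin whose 5p strand prevails, and its strands had log2 fold changes of -1.44 ± 0.42 (3p) and -1.24 ± 0.49 (5p), with edgeR adjusted p of 0.0208 and 0.0429. Both strands of miR-362 rose, by 1.47 ± 0.50 (3p) and 2.46 ± 0.49 (5p) on the log2 scale. Its strand ratios did not overlap between the groups (log2 difference -1.08 with 0.5 added to both counts). Its strand difference did not pass the edgeR test (adjusted p = 0.0645 over the 4 hairpins), and its 3p strand averaged 2.63 CPM in untreated libraries. In miR-502 the strands went opposite ways, at -1.31 ± 0.34 (3p) and 2.66 ± 0.74 (5p), and its strand difference passed the edgeR test (adjusted p = 3.89e-06 over the 4 hairpins), with at most 1.11 CPM of the 5p strand in untreated libraries. miR-3940 had its 3p strand listed as lower and its 5p strand as higher, at levels of at most 8.32 and 2.86 CPM. The 5p strand of miR-3940 had too few reads to test. With 0.5 added to both counts, the strand ratios of miR-502 and miR-3940 did not overlap between the groups (log2 differences -4.29 and -3.46). The direction of both followed from how the rows were selected. Those of miR-125a overlapped (difference 0.005). The matching by name leaves out strands with a hairpin number in 1 name, such as miR-19b-1-5p and miR-19b-3p, both listed as higher, with mean levels of 2.09 and 689 CPM in untreated and 4.99 and 1323 CPM in H2O2 exosomes (edgeR adjusted p = 0.0758 and 0.0921).

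Ratios within a library also compare miR-221-3p with the other abundant listed miRNAs without a library total. In untreated replicates 1, 2 and 3 there were 0.672, 0.671 and 0.325 reads of miR-221-3p for each read of miR-148a-3p, the most abundant listed miRNA of untreated exosomes. In H2O2 replicates 1, 2 and 3 there were 0.483, 1.14 and 0.304. The values overlapped, and the log2 difference was 0.06 ± 0.66 (SE; two-sided exact permutation p = 1.0, n = 3 each), which turned to -0.46 without H2O2 replicate 2 and -0.29 without untreated replicate 3. With an SE of that size a like fall of both is not shown.

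Against miR-183-5p, a miRNA of sensory and epithelial cells, the log2 ratio was lower after H2O2 by 0.45 ± 0.38 (SE; difference -0.45, exact permutation p = 0.3), and against miR-30c-5p, of a broadly expressed family, by 0.41 ± 0.32 (difference -0.41, exact permutation p = 0.4). In both the groups overlapped. Without H2O2 replicate 3 the first was -0.16, without untreated replicate 3 it was -0.69, and the second ranged from -0.71 without untreated replicate 3 to -0.19 without untreated replicate 2. A larger fall of miR-221-3p than of those miRNAs was not distinguished from the spread between libraries.

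Against let-7f-5p, a let-7 family member listed as higher that did not itself pass (edgeR adjusted p = 0.12), the groups did not overlap. miR-221-3p was listed as lower, and let-7f-5p and miR-1246 as higher. The direction of both ratios thus followed from how the rows were selected. There were 1.72, 4.70 and 1.41 reads of miR-221-3p per read of let-7f-5p in untreated replicates 1 to 3. The H2O2 libraries had 0.534, 0.441 and 0.191, in replicate order. miR-221-3p thus outnumbered let-7f-5p in each untreated library and was outnumbered by it in each H2O2 library. The log2 difference was -2.66 ± 0.71 (SE; two-sided exact permutation p = 0.1, the smallest possible, and 0.5 adjusted over the 5 ratios). Against miR-1246 the log2 difference was -4.63 ± 2.41 with overlapping groups (exact permutation p = 0.2). Each read of miR-1246 had 29.3, 12.1 and 2.69 reads of miR-221-3p beside it in untreated replicates 1 to 3. In the H2O2 libraries these ratios were 0.372, 5.75 and 0.0297, in replicate order. The log2 difference was -2.75 without H2O2 replicate 3, in which miR-1246 stood at 274467 CPM, -6.55 without H2O2 replicate 2 and -5.56 without untreated replicate 3.

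**Figure D5:**
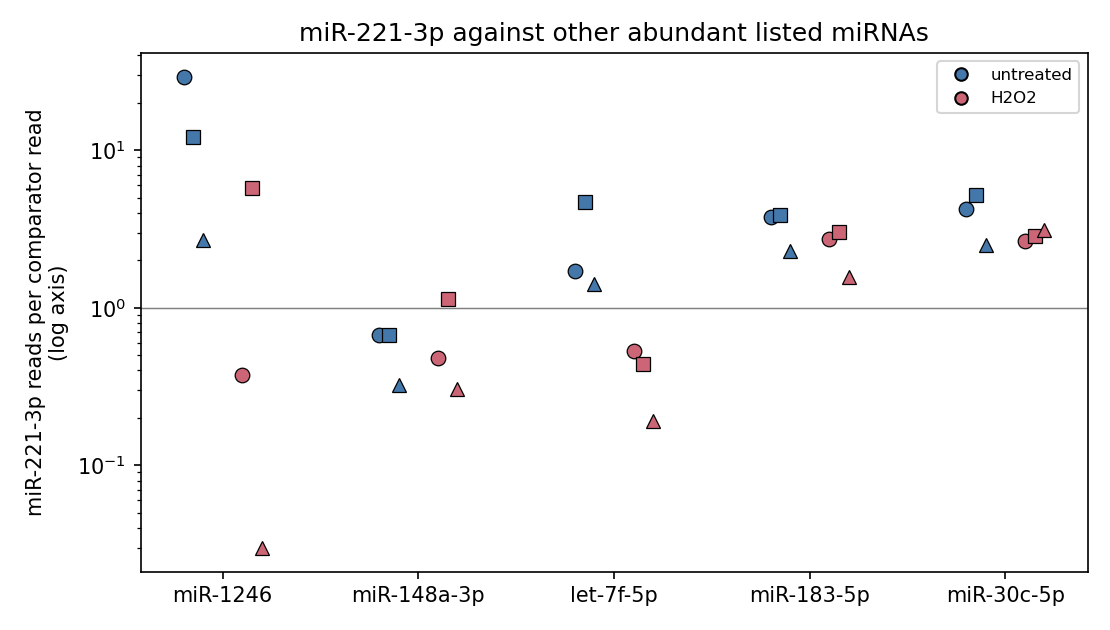
Reads of miR-221-3p per read of each of the other 5 most abundant listed known miRNAs, on a log axis, with 1 point per library, circles, squares and triangles for replicates 1, 2 and 3, and colour for the group. The groups are separate for let-7f-5p, at 1.41 or more in untreated and 0.534 or less in H2O2 exosomes, and overlap for the other 4.

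The miRNAs most like each strand over the 6 libraries were found by the root mean square difference of log2(CPM + 1) profiles centred on their own means, as a description. For miR-221-3p they were miR-486-5p (0.20 log2 units), miR-454-5p (0.21), miR-125b-1-3p (0.25), miR-625-3p (0.32) and miR-4742-3p (0.33), against a median of 0.82 over the known rows. For miR-221-5p they were miR-502-3p (0.10), miR-183-5p (0.13), miR-629-5p (0.15), miR-424-3p (0.17) and miR-4676-3p (0.20), against a median of 0.99. The added 1 compresses rows near 1 CPM, and miR-4676-3p, at mean levels of 2.31 and 0.461 CPM, had a log2 fold change of -2.37 ± 0.68 beside -1.31 for miR-221-5p. Neither strand was the other's closest match. Their distance was 0.38, which made miR-221-5p the 12th closest to miR-221-3p and miR-221-3p the 27th closest to miR-221-5p.

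miR-502-3p was picked as the closest match of miR-221-5p over these same libraries. A fold change of like size and separate groups follow from such a choice. miR-502-3p went from 258 to 278 CPM in untreated libraries to 99.2 to 126 CPM in H2O2 libraries. Its log2 fold change was -1.31 ± 0.34 (SE; edgeR's adjusted p was 0.0143). miR-486-5p, the closest match of miR-221-3p, is known from red blood cells and went from 28.8 ± 9.80 to 7.20 ± 1.63 CPM (SD, n = 3 each). Of 6 blood cell miRNAs, 3 were listed (miR-451a, miR-486-5p and miR-142-5p) and all 3 fell, where 48.0% of all known rows did. Their summed level was 33.2 to 56.7 CPM in untreated and 8.23 to 14.3 CPM in H2O2 libraries. miR-142-5p was the rarest of them, with mean levels of 2.79 CPM in untreated and 0.703 CPM in H2O2 libraries. Without H2O2 replicate 1 none of the 3 blood cell miRNAs passed (0), where 11 of 126 known rows did. Without untreated replicate 2, 1 of the 2 tested passed, beside 43 of 122 known rows. Without H2O2 replicate 3, 1 of 3 passed, beside 53 of 126 known rows. The part of blood cell RNA in the fall of miR-221 was not tested. miR-122-5p, a liver miRNA, also fell, from 56.3 ± 53.4 to 7.12 ± 2.63 CPM. Neither endothelial nor melanocyte miRNAs (0 of 2 each) were among the rows. Of 3 muscle miRNAs 2 were listed, both as higher. miR-1-3p did not pass (log2 fold change 3.30, edgeR adjusted p = 0.0626) and ranged from 1.95 to 197 CPM in H2O2 libraries. miR-133a-3p, at 0 CPM in untreated and at most 13.9 CPM in H2O2 libraries, had too few reads to test. None of 9 keratinocyte and epithelial marker strands, such as miR-203a-3p and miR-205-5p, was among the rows (0), so the cell type could not be checked against that list. Other strands of those hairpins, miR-205-3p and miR-31-3p, were among the rows and are named here after their values were seen. miR-205-3p averaged 37.6 ± 28.6 CPM (SD, n = 3) in untreated and 9.18 ± 9.73 CPM (SD, n = 3) in H2O2 libraries. Its difference was -2.05 ± 0.83 on the log2 scale, with an edgeR adjusted p of 0.0462. miR-31-3p went the other way, from 91.9 ± 86.2 CPM in untreated to 574 ± 21.0 CPM in H2O2 libraries (SD, n = 3 each). Its difference was 2.64 ± 0.63 on the log2 scale, with an edgeR adjusted p of 0.0119. Neither call was checked without single libraries.

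MIR221 lies on the short arm of the X chromosome, and a list of 12 hairpins of that chromosome, including the cluster in CLCN5, was set beside it. Of these, 6 were listed, with 9 rows, all tested, of which 4 rose, 3 fell and 2 did not pass. Over all 127 known rows 39 rose and 61 fell, and 78.7% passed in either direction, a share close to that of the list. Leaving out both strands of miR-221, 4 of 7 rows rose and 1 fell. Besides both strands of miR-221, the row that fell was miR-502-3p. Those that rose were miR-362-5p, miR-362-3p, miR-502-5p and miR-500a-5p (1.65 ± 0.54 on the log2 scale), which reached at most 80.4 CPM in any library. miR-500b-5p was at 1.41 ± 0.61 and let-7f-5p, which a hairpin on chromosome 9 also yields, at 0.90 ± 0.52. The list median log2 fold change was 1.41, beside -1.23 over all 127 known rows. Most rows of the list, and all that rose, come from the cluster in CLCN5, so the median mainly describes that cluster. Without H2O2 replicate 1, 1 of the 9 rose and 0 fell, where 8 of 126 known rows passed as higher and 3 as lower. Without untreated replicate 1 or 2, 2 of the 9 rose, where 16 and 18 of 122 known rows passed as higher.

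A list of 10 strands linked to CDKN1B or KIT, the known targets of miR-221-3p, had 5 listed members, of which 4 fell and 1 rose, with a median log2 fold change of -1.73. Leaving out miR-221-3p itself, 3 of 4 tested members fell and 1 rose, while the median includes it. Over all 127 known rows 48.0% fell, 78.7% passed in either direction and the median was -1.23. Beside miR-221-3p, those that fell were miR-148a-3p (log2 fold change -1.73 ± 0.53), miR-148b-3p (-1.89 ± 0.53) and the p53-induced miR-34c-5p (-1.79 ± 0.42). miR-193b-3p rose by 1.62 ± 0.46, from 259 to 334 CPM in untreated to 419 to 1297 CPM in H2O2 libraries. Without H2O2 replicate 1, 1 member fell, miR-34c-5p, and 0 rose, where 3 of 126 known rows passed as lower and 8 as higher. miR-193b-3p also did not pass without untreated replicate 1 or untreated replicate 2. Nor did miR-148a-3p without H2O2 replicate 2 or untreated replicate 3, or miR-221-3p without untreated replicate 2. No target mRNA was measured, so these values say nothing of CDKN1B or KIT in the cells that take up the vesicles.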

How the data were processed

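The submitters' processing notes name Bowtie 1.1.1, cutadapt, FastQC and bcl2fastq. No source used here gives the build, miRNA catalogue or counting rules. Libraries came from Trizol-extracted RNA and a NEBNext small RNA kit, per the labels. The authors deposited raw read counts, normalized values that are CPM, log2 fold changes, the matching fold (a ratio) and unadjusted p-values, per the file headers. Their highest p was 0.049 and smallest absolute log2 fold change 1.03, so the rows are selected. Library totals (2449856 to 5405525 reads) were recovered as count divided by CPM.

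Counts were tested with edgeR 4.0.16 (R 4.3.3; estimateDisp, glmQLFit, glmQLFTest, two-sided), with those totals, on the 186 rows that reached 5 counts in 3 or more libraries, Benjamini-Hochberg adjustment over these rows and a threshold of 0.05. SE is the fold change over the root of F. The fit was checked on simulated counts in which most rows were unchanged. The rows here were all selected for a difference, so that check gives no error rate for these calls. Ratios of counts were tested with exact permutation tests in scipy 1.17.1, and intervals are exact Clopper-Pearson 95%, counting error only. Folds used RNAfold 2.7.2 on RefSeq sequences. DESeq2 1.42.0, limma 3.58.1 on log2(CPM + 1) and log2(CPM + 5), and other scalings, filters and left-out libraries were alternatives. Totals without miR-1246 reads also leave out predicted entries named for it, and whether such entries share reads was not checked.

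The members, lists and tests were chosen with earlier results of these data known. Named miRNAs were both strands, miR-222, seed matches, the 5 closest in pattern to each strand, the 5 most abundant others, hairpins with both strands listed, and list members.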

Additional observations from a re-analysis of the deposited data

How the results depend on the processing

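Both strands of miR-221 were lower in H2O2 exosomes under all 19 alternatives. The log2 fold change of miR-221-3p ranged from -2.01 (median-of-ratios scaling) to -1.47 (without H2O2 replicate 3), and it passed in 16 of the 19. That of miR-221-5p ranged from -1.59 (median-of-ratios scaling) to -1.06 (totals without miR-1246 reads), and it passed in 17. With p-values adjusted for 2000 tests, as for an unselected table, the values stayed at -1.67 and -1.31 and did not pass, and 2 known miRNAs did. Leaving out a library gave -1.88 to -1.47 for miR-221-3p (4 of 6 passed) and -1.33 to -1.27 for miR-221-5p (5 of 6 passed), and 11 to 80 known calls against 100 with all libraries (46, 43 and 80 without untreated replicates 1, 2 and 3, and 11, 59 and 53 without H2O2 replicates 1, 2 and 3). The strand ratio difference ranged from -0.57 to -0.13 without a library, was -0.40 with 0.5 added to both counts, and never changed sign. The ratio to miR-148a-3p ranged from -0.46 to 0.49 without a library. It was negative, at -0.29 and -0.46, without untreated replicate 3 and H2O2 replicate 2, and the cause was not tested.

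Scaling shifted the log2 fold changes of the known rows by a median of -0.28 with median-of-ratios and 0.23 with totals without miR-1246 reads. With a factor matching the authors' fold changes the median shift was 0.18. That factor was chosen after seeing the data, as were the ratios to other miRNAs without a library. miR-221-3p and miR-221-5p passed with each of these scalings. Selected rows cannot give a neutral scaling factor.

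Same-numbered libraries deviated together weakly (correlations 0.08 to 0.22 over 127 known rows), against -0.20 to 0.12 for libraries of different numbers. With 3 candidates each, 4 of 6 libraries matched best with their own number. Library total, miR-221-3p level and strand ratio also had the same replicate order in both groups. A shared replicate effect is thus possible, and the tests above, run without pairing as planned, do not account for it. With the replicate block miR-221-3p was at -1.70, miR-221-5p at -1.31 and 100 known miRNAs passed. The ratio of the strands was lower in H2O2 in 3 of 3 same-numbered pairs, with a mean difference of -0.40 (exact sign-flip p = 0.25, the smallest possible).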
